A study of Mus musculus with 2 samples.

Results

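The cytosolic ribosomal protein genes encode the proteins of the ribosome outside mitochondria. They were picked by symbol, as Rpl or Rps followed by a number with at most a short suffix, together with Rplp0, Rplp1, Rplp2 and Rpsa. The rule found 87 of the 54838 genes in the tables, 53 of the large and 34 of the small subunit. Of these, 83 are annotated as protein coding, and Rps4l, Rps12l1, Rpl32l and Rpl6l are annotated as pseudogenes. The cells were macrophages of the sciatic nerve, a peripheral nerve of the leg, from Flt3-Cre LSL-YFP fl/fl male mice of 10 to 12 weeks. Nerves of 19 mice were pooled, cells were sorted on CD64 and CD45, and the YFP- and YFP+ cells each gave 1 droplet library, so animals cannot be separated. YFP switches on in cells whose ancestors once expressed Flt3, a receptor of multipotent blood progenitors, and stays on in their progeny. The YFP+ library therefore stands for the progeny of hematopoietic stem cells and the YFP- library for cells taken to be of embryonic origin, within the efficiency of the Cre and of the sort.

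A ribosome joins a small subunit, which reads the mRNA, to a large subunit, which forms the peptide bond. Nearly every ribosomal protein is needed in a single copy per ribosome, and the genes are among the most highly expressed in most cells. Their mRNAs begin with a stretch of C and T bases, the terminal oligopyrimidine tract, through which the mTORC1 kinase controls their translation. In macrophages, translation changes with growth and activation. Most of the genes also have processed pseudogenes, copies of the mRNA that were reverse transcribed back into the genome.

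Barcodes with at least 500 unique molecular identifiers (UMIs, which count captured RNA molecules) and 200 genes were taken as cells. This left 1045 YFP- cells with 2418044 UMIs and a median of 2233 per cell, and 4053 YFP+ cells with 6747554 UMIs and a median of 1484. The libraries shared 7 cell barcodes. Levels are given as CPM, the UMIs of a gene scaled to a library total of 1000000, and genes are called higher or lower where the log2 ratio is past 0.32 in size, which is 25% above the lower value. None of the 10 macrophage markers tested was past this threshold between the libraries, and their summed level was 20131 CPM in YFP- and 20104 CPM in YFP+. C1qa, a complement gene of tissue macrophages, stood at 6161 and 6101 CPM. With 1 library per condition no difference between conditions could be tested. The 95% intervals given below (exact Poisson, Clopper-Pearson, or conditional on the summed count for log2 ratios) cover counting error only.

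The start of the mRNA is shown first for members whose values are described below. Each window runs from 10 bases before the RefSeq start to 20 after it, 5′ to 3′ on the gene's strand (GRCm38.p6), and capitals mark its longest run of C and T. The large subunit genes Rpl13a (chr7:45128726-45128755, minus strand), Rpl27a (chr7:109519185-109519214, plus) and Rpl15 (chr14:18270967-18270996, minus) and the small subunit gene Rps10 (chr17:27635225-27635254, minus) had the lowest YFP+ to YFP- ratios of the protein-coding members apart from Rplp1. Rps6 (chr4:86857348-86857377, minus) encodes the S6 kinase substrate, and Rpl13 (chr8:123102340-123102369, plus) was among the highest ratios.
Rpl13a: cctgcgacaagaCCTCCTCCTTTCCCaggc
Rpl27a: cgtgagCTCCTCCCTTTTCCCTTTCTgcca
Rpl15: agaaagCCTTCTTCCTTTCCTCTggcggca
Rps10: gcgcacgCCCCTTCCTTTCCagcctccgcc
Rps6: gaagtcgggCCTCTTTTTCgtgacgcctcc
Rpl13: TTTCgcctgattttgattggcgtttgagat

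A run of 6 or more C or T was present in this window in 60.9% of the 64 protein-coding members with a RefSeq entry, against 31.8% of 17428 other protein-coding genes. Further letter strings were searched in the 300 bases from 250 before to 50 after the start, on both strands, except CTCTTT, which was searched as written in the 30-base window. CTCTTT was found in 10.9% of members and 1.06% of the other genes. CCGGAAG, the core bound by ETS family factors, was found in 40.6% and 12.8%. GCCATNTT, the core bound by YY1, was found in 20.3% and 7.41%. The strings were chosen after the sequences had been looked at, and a match describes the letters only.

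Ribosomal protein genes took about 1 in 5 UMIs of these macrophages. Their summed share was 19.5% of UMIs in YFP- (19.4 to 19.5) and 20.4% in YFP+ (20.4 to 20.5), a log2 ratio of 0.07. The large subunit contributed 10.8% and 11.2%, and the small subunit 8.72% and 9.23%. The ratio of small to large subunit UMIs was 0.811 (0.806 to 0.816) in YFP- and 0.825 (0.822 to 0.827) in YFP+. With UMIs of the members' -ps pseudogenes, described below, added, it was 0.825 (0.820 to 0.829) and 0.831 (0.829 to 0.834). These intervals overlapped only at their ends, and an overlap does not show that the ratios are equal. The share in barcodes holding 10 to 100 UMIs, which carry RNA free in the suspension, was 16.3% in YFP- and 18.0% in YFP+, so free RNA differed in the same direction.

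Levels of single members ran from 0 to 11939 CPM, and 69 of the 87 stood at 1000 CPM or more in both libraries. The counts come from transcript 3′ ends and were not divided by length, so an order between genes is an order of captured 3′ ends. Rps29, a zinc-binding protein of the small subunit, was the highest in both libraries, with 11939 CPM among YFP- cells and 11784 among YFP+ cells. Rps27, another zinc-binding protein of the small subunit, followed at 5573 and 6396 CPM. Rpl37a of the large subunit had 5602 and 6241 CPM, and Rps28 of the small subunit had 5434 and 5230 CPM. Rpl41, the shortest ribosomal protein, had 4556 and 5201 CPM. Rps27 and Rpl37a lay within 3% of each other and changed places between the libraries in the order of level, with overlapping intervals in YFP-. Rpl13, Rpl35a, Rps14 and Rpl32 were also among the 10 highest, between 3850 and 4871 CPM. The 10 highest members held 27.2% of member UMIs in YFP- and 28.1% in YFP+. The order was close to the same in both libraries (Spearman's rho 0.99 over the 83 members with a mean of at least 20 CPM, which share an assay and a protocol).

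**Figure D1:**
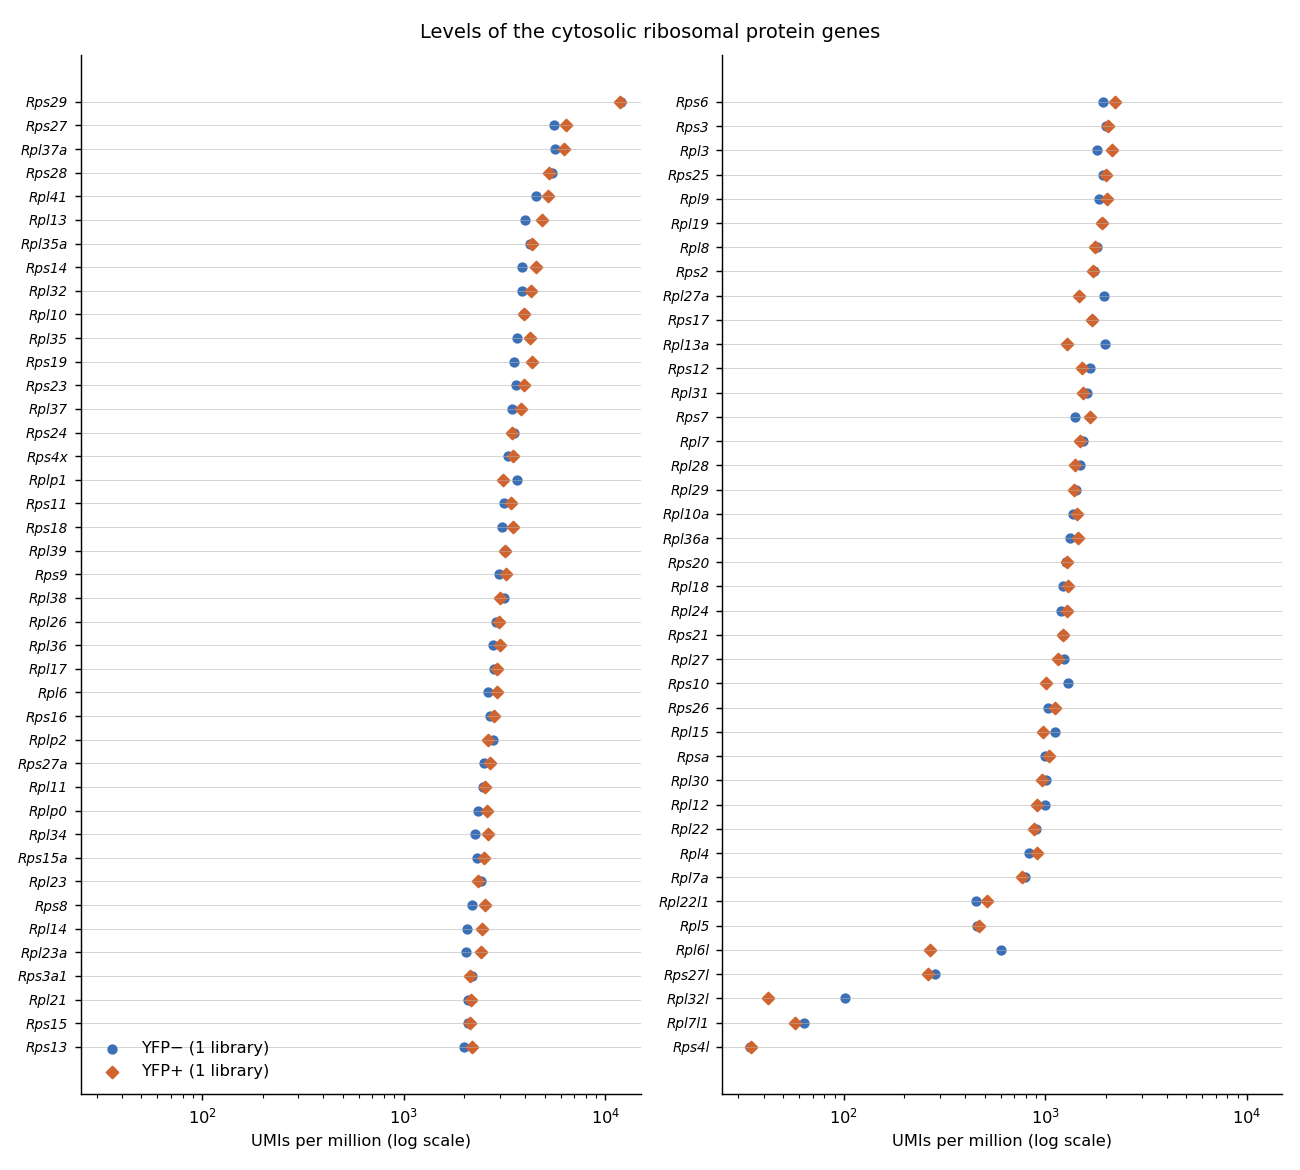
Levels of members with a mean of at least 20 CPM, ordered by mean, on a log axis of CPM, with a circle for the YFP- and a diamond for the YFP+ library. The markers of a gene lie close together from Rps29 at the top to Rps4l, and are widest apart for Rpl6l and Rpl32l.

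At the other end stood the duplicated genes. Rpl3l, a muscle form of Rpl3, and Rpl10l, a testis form of Rpl10, had 0 UMIs in both libraries. A count of 0 allows up to 1.24 CPM in YFP- and 0.445 CPM in YFP+ (3 counts per library). Rpl39l, the testis form of Rpl39, had 2 and 12 UMIs, and Rps12l1 had 7 and 13. The 5 lowest members above the minimum were Rpl32l and Rpl6l, described below, Rps4l at 34.3 and 34.8 CPM, Rpl7l1, a paralogue of Rpl7 with a role in ribosome assembly, at 63.7 and 57.1 CPM, and Rps27l, a p53-induced paralogue of Rps27, at 283.7 and 263.1 CPM. Rpl22l1 was the duplicate closest to its partner, with 454.9 and 511.3 CPM against 901.1 and 882.7 CPM for Rpl22, a large subunit protein with a known role in lymphocytes.

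Expressed as a part of the pair, Rpl22l1 made up 33.5% of Rpl22 and Rpl22l1 UMIs in YFP- (31.9 to 35.2) and 36.7% in YFP+ (35.7 to 37.7). Rps27l made up 4.84% of its pair in YFP- (4.50 to 5.21) and 3.95% in YFP+ (3.77 to 4.13). The intervals of each of these pairs do not overlap between the libraries. For scale, the interval of the log2 ratio lay above 0 in 644 and below 0 in 763 of all 5531 genes with a mean of at least 20 CPM. Rps27rt, with 2840 UMIs in YFP- and 3845 in YFP+, was not counted in the Rps27 pair. The shares of that pair with its UMIs added were not computed. Rpl7l1 made up 3.99% and 3.71%, and Rps4l 1.03% and 0.987%, each with overlapping intervals. Rpl39l made up 0.0261% and 0.0561% of its pair.

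Between the libraries the members moved little. The median log2 ratio, YFP+ over YFP-, was 0.05 over the 83 members, beside -0.00 over all 5531 genes with a mean of at least 20 CPM. Past the threshold, 0 members were higher in YFP+, where 8.23% of all genes were, and 5 of 83 (6.02%) were lower, where 12.3% of all genes were. Past a log2 ratio of 0.58 the members numbered 0 higher and 3 lower, beside 1.54% and 5.77% of all genes. With each cell thinned to 500 UMIs, so that deep cells weighed no more than shallow ones, 11 of 83 members were higher, where 16.3% of all genes were, and 4 lower, where 23.4% were. The 67 other protein-coding genes at or above the 10th percentile of member levels, with no upper limit, had a median of 0.05, with 7 higher and 2 lower. The protein-coding genes outside the members had a median of 0.01 and 8.54% lower. They made up 433 of the 683 genes that were lower. Pseudogenes of members with a -ps symbol made up 61 and other annotated pseudogenes 165, both described below.

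**Figure D2:**
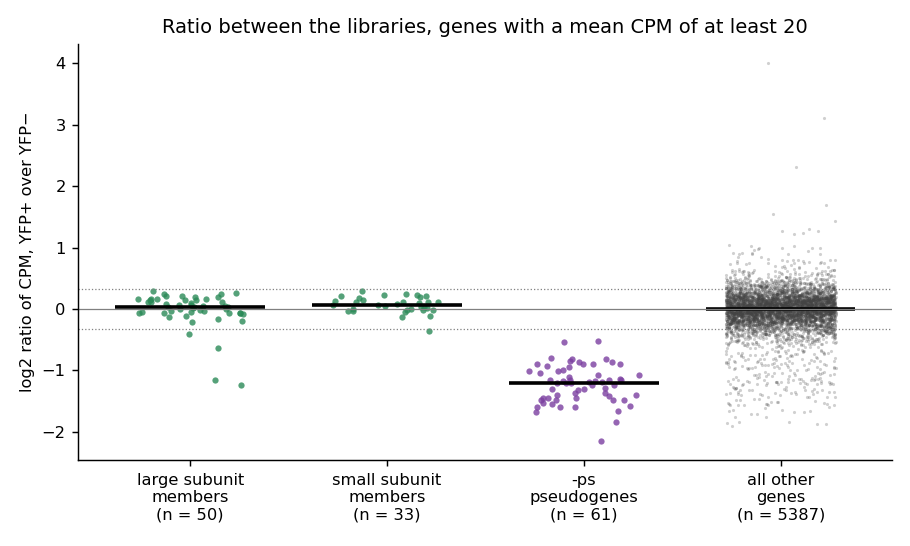
Log2 ratio of CPM, YFP+ over YFP-, for the 50 large subunit members, 33 small subunit members, 61 -ps pseudogenes of members and 5387 other genes, with 1 point per gene, a black line at each median, and dotted lines at 0.32 and -0.32. Members lie between the dotted lines except 5 below, while each -ps pseudogene lies below the lower dotted line.

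The 5 lower members were 2 pseudogene copies and 3 protein-coding genes. Rpl32l had 101.3 CPM in YFP- and 42.2 CPM in YFP+ (log2 ratio -1.24, interval -1.51 to -1.01). Rpl6l had 601.3 and 267.8 CPM (-1.16, -1.27 to -1.07). Both are annotated as processed pseudogenes and went with the class of pseudogenes described below. Rpl13a, known in macrophages for leaving the ribosome to silence inflammatory mRNAs after interferon-γ, had 1985 and 1282 CPM (-0.63, -0.68 to -0.58). Rpl27a, a large subunit protein, had 1949 and 1470 CPM (-0.41, -0.46 to -0.36). Rps10, a small subunit protein mutated in some Diamond-Blackfan anemia families, had 1289 and 1003 CPM (-0.36, -0.42 to -0.30). Rplp1 (-0.22), Rpl15 (-0.20) and Rpl7l1 (-0.16) completed the 8 smallest ratios and lay inside the threshold.

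The 3 protein-coding genes had a ratio below 0 in each of 9 clusters of cells described further on. They were picked by their ratio over these same cells, and the clusters only divide the cells of the same libraries. The signs within clusters are therefore no separate support, and condition and library cannot be told apart. For Rpl13a the ratio within clusters ran from -0.88 to -0.28, for Rpl27a from -0.69 to -0.14, and for Rps10 from -0.55 to -0.19. In free RNA, the ratio of Rpl13a was -0.37 and that of Rps10 was -0.24, while that of Rpl27a was -0.04. Their start windows above hold runs of 14, 20 and 13 C or T. Windows on chromosome 18, where Rps14 and Rpl17 lie, were left out of the next comparison. Over the 61 members left with a window and a mean of at least 20 CPM, run length and ratio were only weakly related (Spearman's rho -0.14). Rpl13a, Rpl27a and Rps10, picked by their low ratio, were among the 61, each with a run of 10 or more. The median ratio was 0.05 for the 23 with a run under 6, 0.11 for the 19 with 6 to 9 and -0.05 for the 19 with 10 or more.

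The largest ratios were smaller in size than the lowest. Rps19, the gene most often mutated in Diamond-Blackfan anemia, had 3508 CPM in YFP- and 4310 CPM in YFP+ (log2 ratio 0.30, 0.26 to 0.33). Rpl13 had 3980 and 4871 CPM (0.29, 0.26 to 0.32), and Rpl23a, at the exit of the peptide tunnel, had 2029 and 2430 CPM (0.26, 0.21 to 0.31). Rpl14, Rpl3, Rps7 and Rps14 lay between 0.23 and 0.25. Of the 83 members 14.5% were above 0 in 9 of 9 clusters, Rpl13, Rpl14 and Rpl23a among them, and 8.43% below 0 in 9 of 9. Over all genes, most of them with far fewer UMIs per cluster, it was 1.501% and 2.95%. Over the 67 other protein-coding genes above the low limit given before, it was 14.9% and 1.49%.

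Groups by position in the ribosome had summed levels close between the libraries. The P-stalk, which recruits elongation factors, held 8721 CPM in YFP- and 8329 CPM in YFP+, with Rplp0 at 0.15, Rplp2 at -0.07 and Rplp1 at -0.22 on the log2 ratio scale. The 5S particle proteins Rpl5 and Rpl11, which also bind Mdm2 when assembly fails, had ratios of 0.03 and 0.03. Of 8 proteins at the rim of the tunnel exit, 0 passed the threshold, with a median of 0.03. Of 9 Diamond-Blackfan genes, Rps10 alone passed, with a median of 0.03. Rps6 had 1924 and 2218 CPM, a ratio of 0.21.

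Other genes of translation also stayed mostly inside the threshold. Of 8 elongation factors, 0 passed the threshold, and Eef1a1, which delivers tRNA to the ribosome, had 2313 and 2257 CPM. Of 33 initiation factors 2 were higher, Eif3c (0.38) and Eif6 (0.34), the latter known to hold free large subunits apart from small ones, and 0 were lower. Of 19 assembly factors 2 were higher, with Pes1, a factor of large subunit assembly, at 13.6 and 26.7 CPM, and 1 was lower. Of 10 genes of the mTORC1 and Myc list 1 was lower, Akt1s1 at 34.3 and 24.6 CPM. Of 62 mitochondrial ribosomal protein genes, 2 were higher and 3 lower. Each of these shares lies near or below the shares of all genes given above, apart from the assembly list's 10.5% higher, which is 2 genes.

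Pseudogenes with a -ps symbol were lower in the YFP+ library in each case above the minimum level. By contrast Rps4l, a member annotated as a pseudogene, had a ratio of 0.02. It was 80.2% identical to Rps4x over 802 aligned bases. Whether identity to the parent goes with the ratio was not tested. The tables list 297 symbols of the form Rps6-ps4, named as pseudogenes of members, and 61 had a mean of at least 20 CPM. All 61 were lower past the threshold (12.3% of all genes were), with a median log2 ratio of -1.20 and a range from -2.15 to -0.51. The mean is over both libraries, so a copy near the minimum can pass it through its YFP- level alone. Below the minimum, not every copy was lower. The summed share of all 297, with no such filter, was 1.55% of UMIs in YFP- and 0.751% in YFP+. That was 7.97 and 3.67 UMIs for every 100 on members. Annotated pseudogenes without a -ps symbol, whose parent genes were not identified here and which may include copies of members, had 165 of 182 lower and a median of -1.15. Rps27rt, a ribosomal protein gene outside the rule, stood in the same range, at -1.04.

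Most of these copies are close in sequence to the genes they came from. Of the 61, 60 aligned to the parent mRNA over at least 100 bases, with a median identity of 99.1% (94.2 to 100), and 9 of them had no mismatch over the aligned bases. Reads from such stretches can be given to either locus or dropped, so the division of UMIs between a member and its copy is uncertain. A 60-base stretch of coding sequence of Rpl6 (chr5:121206751-121206810, plus strand, GRCm38) and the matching stretch of Rpl6l (chr10:111126295-111126354, plus), which is 98.7% identical over 871 aligned bases, shows where the pair can be told apart, with the differing bases in capitals. The stretch was chosen to hold differing bases, and has 5 of the 11 along the alignment. The same is shown for Rpl32 (chr6:115805602-115805661, minus) and Rpl32l (chr10:20208789-20208848, plus), 97.5% identical.
Rpl6: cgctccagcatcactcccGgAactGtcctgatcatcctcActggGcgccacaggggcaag
Rpl6l: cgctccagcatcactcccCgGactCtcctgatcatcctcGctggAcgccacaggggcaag
Rpl32: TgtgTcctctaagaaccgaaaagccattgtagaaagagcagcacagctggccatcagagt
Rpl32l: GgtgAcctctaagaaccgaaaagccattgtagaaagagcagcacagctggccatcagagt

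Adding the UMIs of -ps symbols to their parents moved several members. The -ps symbols held 39.8% of the joint UMIs of Rpl3 in YFP- and 27.6% in YFP+, and the ratio of Rpl3 went from 0.24 to -0.02. For Rps6 they held 37.3% and 20.7%, and its ratio went from 0.21 to -0.13. For Rps10 they held 35.2% and 21.8%, and its ratio went from -0.36 to -0.63. Rpl13a and Rpl27a had few such UMIs, at most 2.38% of the joint count, and their ratios stayed at -0.65 and -0.41. With the -ps UMIs added, the summed share was 21.03% in YFP- and 21.2% in YFP+ (log2 ratio 0.01). The median ratio became -0.03, and 34 of 83 members were above 0 in place of 52. Other annotated pseudogenes, which may include copies of members, were not added. They held 41209 CPM in YFP- and 19883 CPM in YFP+. In 57 members the -ps part was larger in YFP-, and in 1 it was larger in YFP+.

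The difference in pseudogene UMIs between the libraries was present in every cluster. Across the 9 clusters, -ps UMIs per 100 member UMIs ran from 7.05 to 8.27 in YFP- and from 3.40 to 3.76 in YFP+, with no overlap. In free RNA they were 4.80 and 2.41. The condition and the library cannot be told apart here, and the part of read mapping in this difference was not tested.

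Cells differed in their share of ribosomal protein UMIs more than the libraries did. In YFP- the share ran from 3.68% to 32.8% with a median of 19.0%, and in YFP+ from 1.44% to 39.3% with a median of 20.2%. The SD over cells was 5.76 and 5.43 percentage points, 5.99 and 4.75 times the SD that counting alone gives. After each cell was thinned to 500 UMIs, with no cell left out, the medians were 18.4% and 20.2% and the SDs 3.44 and 3.14 times counting. Cells under 10% made up 12.2% of YFP- cells (128 cells, 10.3 to 14.4) and 6.27% of YFP+ cells (254 cells, 5.54 to 7.06).

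**Figure D3:**
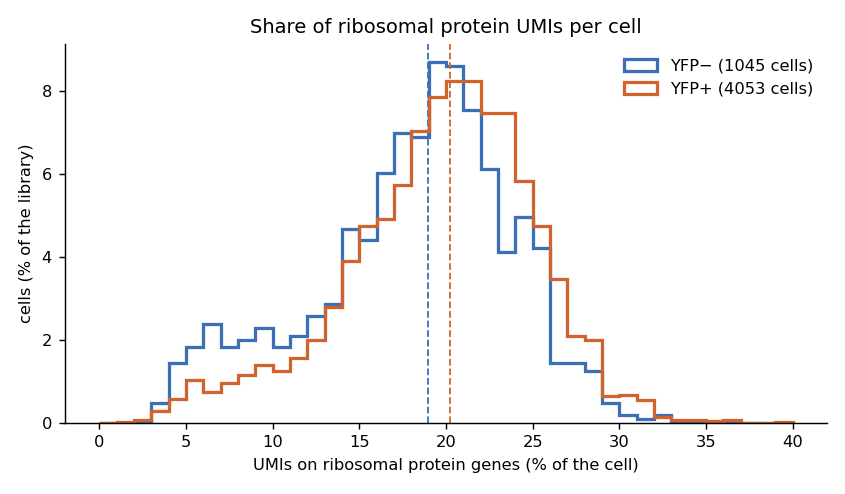
Share of a cell's UMIs on the 87 genes (x axis, percent), as the percent of cells of each library (y axis) in bins of 1 percentage point, with dashed lines at the medians of 19.0% in YFP- and 20.2% in YFP+. YFP- has a second, lower rise below 10%, where 12.2% of its cells lie.

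Taken singly, and at few UMIs per cell, the members had a variance over cells a little above that of counting. In counts thinned to 500 UMIs, the ratio of variance to mean (Fano factor, 1 for pure counting) had a median of 1.15 over 70 members in YFP- and 1.12 over 68 in YFP+. For the non-members between the lowest and the highest of these members in level it was 1.31 over 68 genes and 1.30 over 50. Rps29 was highest among the members, at 1.60 and 1.51, and also had the highest mean, 5.76 and 5.82 UMIs per thinned cell. The factor grows with the mean where cells differ and stays near 1 at few UMIs. It therefore cannot be set against the spread of the summed share. The non-members were not matched to the members in level within this range. They include Fau, a ribosomal protein gene outside the rule, and in YFP- also Rps27rt, Rps23-ps1 and Rpl3-ps1.

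The share rose with the depth of a cell, and more steeply in YFP-. From cells of 500 to 1000 UMIs to those of 4000 or more, it was 11.3%, 16.7%, 20.6% and 20.7% in YFP-, and 18.0%, 19.8%, 21.4% and 21.7% in YFP+. Spearman's rho of share and UMIs over cells was 0.52 in YFP- and 0.26 in YFP+, and 0.44 and 0.15 against the UMIs of other genes. Cells of 1 library share its preparation, so these describe the libraries. In cells of 2000 UMIs or more against cells under 1000, 83 of 83 members were higher in YFP-, where 25.4% of all genes were (median 0.92 against -0.28). In YFP+ it was 24 of 83, where 15.4% of all genes were (median 0.26 against -0.09). In both libraries 0 members were lower, where 48.1% of all genes were in YFP- and 29.8% in YFP+. Most genes had far fewer UMIs than the members in these cells, so counting error alone takes more of them past the threshold.

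Other genes of translation moved mostly, but not all, in the same direction as the members over these cells. Of 8 elongation factors 7 were higher in the deep YFP- cells (median 0.60) and 6 in the deep YFP+ cells (0.38), with 0 lower. Of 33 initiation factors 17 and 12 were higher, and 3 and 2 lower. Of mitochondrial ribosomal protein genes, 28 of 57 were higher and 12 lower in YFP-. In YFP+ 21 of 63 were higher and 1 lower. The -ps symbols were higher in 54 of 67 in YFP- (median 1.01) and in 17 of 42 in YFP+ (0.27), and lower in 2 and 0.

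Malat1 and mitochondrially encoded RNA moved the opposite way. Malat1, a nuclear noncoding RNA, fell from 64106 to 24058 CPM between the shallowest and deepest YFP- cells and from 56581 to 29526 CPM in YFP+. Mitochondrially encoded transcripts went from 2.81% to 0.825% of UMIs in YFP- and from 1.63% to 0.914% in YFP+. The cells under 10% in share had a median of 916.5 UMIs in YFP- and 813 in YFP+, with Malat1 at 62986 and 79860 CPM. Their macrophage markers summed to 27854 and 27388 CPM, above the 16365 and 17064 CPM of cells at 25% or more. These groups were made by the ribosomal share and CPM counts all UMIs, so a low share by itself raises the CPM of other genes. The part of RNA quality in the low shares was not tested.

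**Figure D4:**
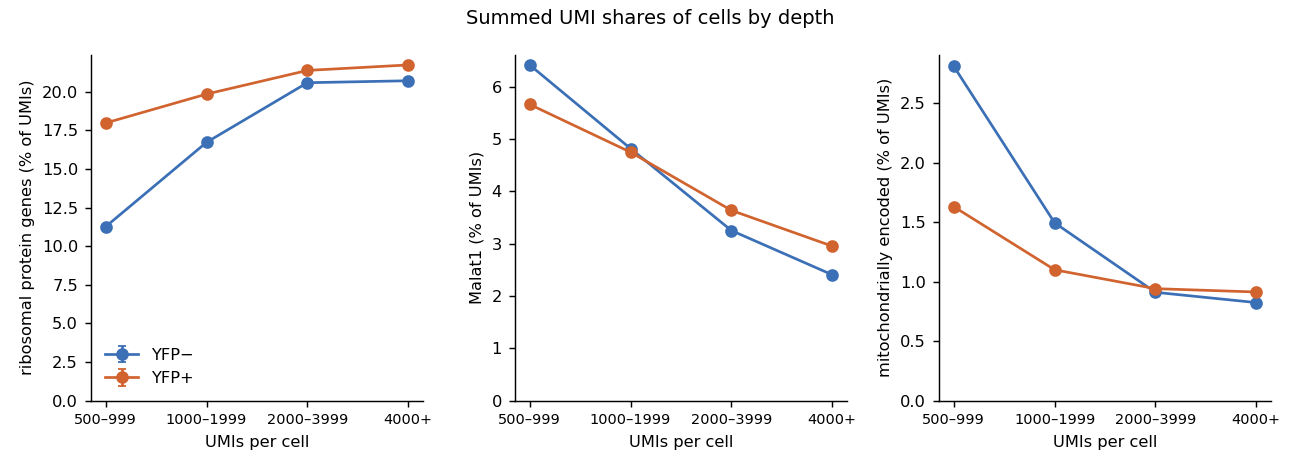
Summed shares of UMIs (percent) on ribosomal protein genes, Malat1 and mitochondrially encoded genes in cells grouped by UMIs per cell, for YFP- and YFP+, with 95% counting intervals in the first panel that are smaller than the points. The ribosomal share rises with depth from 11.3% to 20.7% in YFP- and from 18.0% to 21.7% in YFP+, while the other panels fall.

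Cells were then grouped into 9 clusters with the members, pseudogenes and mitochondrially encoded genes left out, and clusters are called by their leading genes. The highest shares were in the cluster led by Fhl3 in YFP- (20.5%) and in the cluster led by Lgals3, S100a4 and S100a6 in YFP+ (21.02%). The lowest were in a cluster with Acta2 and Tagln among its leading genes, at 15.3% in YFP- (17 cells, 14.8 to 15.7) and 15.4% in YFP+ (94 cells, 15.2 to 15.6). Leading genes were taken over both libraries together. Acta2 and Tagln are smooth muscle genes, with 5 and 10 UMIs in all YFP- cells and 326 and 294 in all YFP+ cells. These names rest almost wholly on YFP+ cells and say little about the 17 YFP- cells. Macrophage markers in the cluster summed to 7322 CPM in YFP- and 10400 CPM in YFP+, the lowest of the clusters. In this cluster 48 of 83 members were lower than in other cells in YFP- (background 27.1%) and 59 of 83 in YFP+ (28.7%), and 39 were lower in both (24.2%). There 3 members were higher in YFP- (background 56.8%) and 2 in YFP+ (40.9%).

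Other clusters also had a lower summed share than the other cells of their library. For the cluster led by Snhg20 the log2 ratio to other cells was -0.14 in YFP- and -0.04 in YFP+, for that led by Cd209f -0.07 and -0.19, and for that led by Top2a -0.10 and -0.15. The cluster led by Cd209f, Cd209g and Ccl8 had 18.5% in YFP- (66 cells) and 18.0% in YFP+ (113 cells), with 16 and 26 of 83 members lower than in other cells, where 27.2% and 26.2% of all genes were, and 13 lower in both, where 16.1% of all genes were. These counts lie near the background. Most genes held far fewer UMIs there than the members, so counting error alone takes more of them past the threshold. Members higher there numbered 5 in YFP- (40.7%) and 1 in YFP+ (34.8%). Rplp0 was one of these 13, at 1427 CPM against 2380 in other YFP- cells and 1378 CPM against 2619 in other YFP+ cells, and Rpl32 and Rpl3 were others. The ratio of small to large subunit UMIs in this cluster was 0.875 and 0.882, the highest of the 9 clusters in each library. A single small subunit gene, Rps29, stood at 16022 CPM there against 11725 in other YFP- cells. In YFP+ it was 14363 CPM against 11716. The ratio without Rps29 was not computed, so a shift of the subunits as sets is not shown. The cluster led by Top2a, a topoisomerase of dividing cells, had 18.2% (12 cells) and 18.5% (55 cells). There 15 and 16 of 83 members were lower (30.7% and 23.1% of all genes) and 6 lower in both (18.4%), below the background. Members higher there numbered 6 and 2 (45.3% and 40.1%). Its YFP- cells held 50230 UMIs, so most genes had few counts and these shares of all genes are no like comparison. Rps29 was one of the members lower in both, at 8103 CPM against 12020 in other YFP- cells and 9114 CPM against 11850 in other YFP+ cells.

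**Figure D5:**
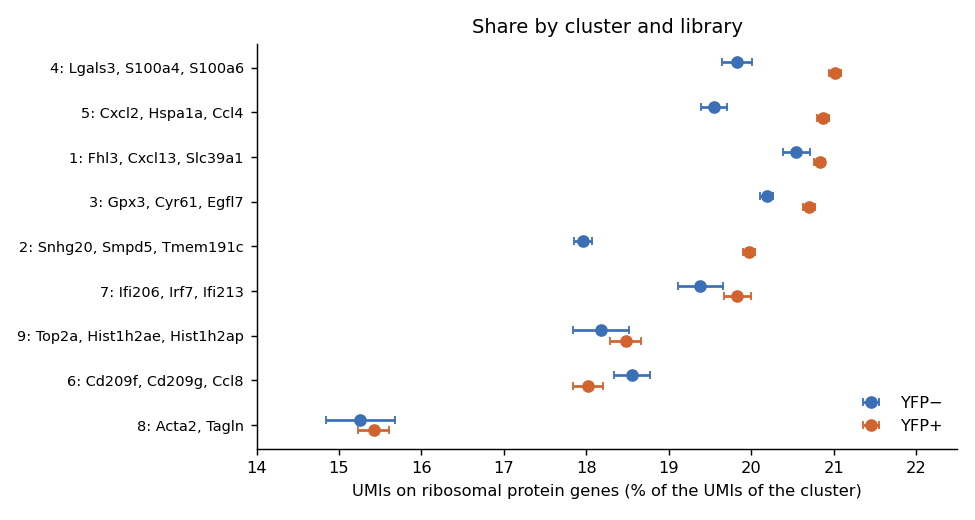
Share of UMIs on the ribosomal protein genes (x axis, percent, starting at 14) in each of 9 clusters named by number and some of their leading genes, for YFP- and YFP+, with 95% counting intervals. The cluster with Acta2 and Tagln is lowest in both libraries, at 15.3% and 15.4%, and the cluster led by Snhg20 shows the widest gap, at 18.0% and 19.97%. The YFP- cells of the Snhg20 cluster are shallower than their library, with medians of 1408 and 2233 UMIs.

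Within clusters the libraries stood close. The summed log2 ratio, YFP+ over YFP-, ran from -0.04 in the cluster led by Cd209f to 0.15 in the cluster led by Snhg20, and was above 0 in the other clusters as well. The cluster led by Snhg20 held 28.4% of YFP- cells and 19.3% of YFP+ cells. Its share was 18.0% in YFP- and 19.97% in YFP+, with mitochondrially encoded transcripts at 1.37% and 1.246%. Its leading genes marked it weakly, with Snhg20 at 71.9 CPM against 33.4 in other cells, over the genes used for clustering. Its median depth was 1408 UMIs in YFP- and 1357.5 in YFP+, against 2233 and 1484 in the libraries. The part of depth in this gap was not tested. In the cluster with Acta2 and Tagln and in that led by Top2a the interval of the ratio held 0.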

How the data were processed

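Single cells were captured with the 10x v2 chemistry, which counts 3′ ends. The deposited files hold raw UMI counts per gene and barcode, made by the authors with Cell Ranger (version 3.0.2 in the submitters' processing notes) on GRCm38. Barcodes with at least 500 UMIs and 200 genes were kept. No doublet caller was run, and leaving out the 5% of cells with the most UMIs was an alternative. The study's own cell filter was not applied. UMIs were summed per library and scaled to CPM, and log2 ratios used a pseudocount of 1 CPM and a mean of at least 20 CPM. Such a ratio understates the change of low genes. No test of condition was made, since each condition is 1 library. "Higher" and "lower" mean a log2 ratio past 0.32 in size. Clusters came from 2000 variable genes, 20 components, 20 neighbours and Leiden at resolution 0.8 (scanpy 1.11.5, leidenalg 0.10.2), without the members, pseudogenes and mitochondrially encoded genes. Ratios and intervals (scipy 1.17.1) were tested on simulated data.

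Named members were the 10 highest, the 5 lowest, the 8 largest and 8 smallest ratios, all under 20 CPM, the paralogue pairs, P-stalk, 5S proteins and Rps6. Cluster leading genes, pathway genes past the fold and pseudogenes were named after their values were seen. The members and lists were chosen with earlier results of these data known. Promoter sequences are from RefSeq (GRCm38.p6), with 64 members matched, and coding stretches from the GENCODE annotation of GRCm38. Some genes that these rules select are not reported here.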

Additional observations from a re-analysis of the deposited data

Results flagged for a closer look

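UMIs on the -ps pseudogenes of the members lie outside the gene set described, and took 1.55% of UMIs in YFP- and 0.751% in YFP+, above the limit that a count of 0 allows. Member UMIs in barcodes with 10 to 100 UMIs, which were not taken as cells, made up 16.3% of the UMIs there in YFP- and 18.0% in YFP+.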

How the results depend on the processing

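No paired analysis was possible because each condition is 1 library of pooled mice, and no replicate could be left out for the same reason. The summed log2 ratio of 0.07 was 0.010 with -ps UMIs added, 0.13 with cells weighted equally, 0.13 after thinning to 500 UMIs, 0.062 with 10% free RNA removed, and 0.027 with pseudogenes left out of members and totals (chosen after seeing the data). The median member ratio was -0.026 with -ps UMIs added and 0.11 with cells weighted equally. Members higher in YFP+ past the threshold numbered 5 with cells weighted equally, 11 after thinning and 1 with no minimum CPM, against 0, and members lower numbered 3 with pseudogenes left out, against 5. Among cells with at least 1000 UMIs the median share was 19.5% in YFP- and 20.7% in YFP+, and rho with depth 0.36 and 0.19. With -ps UMIs added the medians were 20.4% and 20.96%, and small over large 0.825 and 0.831. Thinning gave a median of 18.4% in YFP- and a spread of 3.44 and 3.14 times counting. Rps27l was 3.76% of its pair in YFP+ without the 5% of cells with the most UMIs. Over clusters of at least 10 cells, the lowest YFP- share was 10.2% at resolution 0.5 and with 1000 variable genes, and the highest YFP+ share 20.9% with the latter. With at least 1000 UMIs per cell the clusters ran from 19.2% to 21.2% in YFP- and from 12.9% to 22.7% in YFP+. The cause of these shifts was not tested. The other 105 such values stayed within their counting interval or within 1.5 times the count. Depth limits the members under 20 CPM, whose ratios rest on at most 13 UMIs in a library.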
